A study of Mus musculus with 4 samples.

Results

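The genes described here are 9 STAT and JAK genes, Stat2, Stat3, Stat4, Stat5a, Stat5b, Stat6, Jak1, Jak2 and Tyk2, among 21883 protein-coding mouse genes. They were chosen by name, and each was looked up in 2 deposited lists, narrow regions called with MACS and broad islands called with SICER. Both came from chromatin immunoprecipitation and sequencing (ChIP-seq) of DNMT3B, a de novo DNA methyltransferase, in lung metastases of 4T1 cells, a mammary tumour line grown in BALB/c mice. The series had 2 DNMT3B ChIP libraries and 2 input libraries without antibody, with lung labels 3 and 5 in each kind. All 4 came from metastases, and normal lung and the primary tumour were not analysed here. The lists give positions only. Sequencing depth is unknown, values cannot be traced to single libraries, and no spread between libraries could be computed. How far the tissue held cells other than 4T1 cells cannot be read from lists of positions.

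JAK kinases are bound to the inner ends of cytokine receptors. When a cytokine joins its receptor chains, the kinases phosphorylate STAT proteins, which pair up, enter the nucleus and bind DNA at target genes. SOCS proteins are among the targets and shut the signal off. In the mammary gland STAT5A is known for driving milk protein genes downstream of prolactin, and STAT3 for the involution that follows weaning and for its activity in many tumours. DNMT3B adds methyl groups to cytosines that precede a guanine, written CG below.

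Of the 9 genes, 2 carried both a narrow region and an island, 3 carried islands alone and 4 carried neither. Stat5a and Tyk2 were named in both lists. Stat3, Stat6 and Jak1 had islands but no narrow region. Stat2, Stat4, Stat5b and Jak2 were named in neither list. By family, 3 of 6 STAT genes and 2 of 3 JAK genes had an island, and no member had a narrow region without one. The region named for Tyk2 lies 11912 bp from the gene. Where a region had to overlap the gene or lie up to 5 kb upstream, 1 member, Stat5a, had a narrow region. Among all protein-coding genes, 6.14% were named in the MACS list, 17.2% were paired with an island and 2.46% were in both. By name at any distance the members stood at 22.2%, 55.6% and 22.2%, but these shares rest on 9 genes, 3 of which are neighbours, and they were not tested.

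The letters just before the gene starts are given for the 5 members with islands, to set starts under an island beside starts outside one. They are the 250 bases before each start in RefSeq (GRCm38.p6), read 5′ to 3′, with every CG in capitals. Tyk2, Stat6 and Stat5a had an island over the gene start, and Stat3 and Jak1 did not. RefSeq lists 2 starts for Stat5a, here called outer and inner. Which of them is the start given in the SICER list is not settled, so both are shown. The coordinates belong to GRCm38 and cannot be set beside the deposited positions used in the rest of the text.
Tyk2, chr9:21131276-21131525, minus strand: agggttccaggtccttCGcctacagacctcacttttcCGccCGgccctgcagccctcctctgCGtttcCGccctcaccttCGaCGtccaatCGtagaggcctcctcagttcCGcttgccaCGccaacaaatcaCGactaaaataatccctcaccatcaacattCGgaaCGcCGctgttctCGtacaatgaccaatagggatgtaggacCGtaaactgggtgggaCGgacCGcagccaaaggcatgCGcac
Stat6, chr10:127642736-127642985, plus strand: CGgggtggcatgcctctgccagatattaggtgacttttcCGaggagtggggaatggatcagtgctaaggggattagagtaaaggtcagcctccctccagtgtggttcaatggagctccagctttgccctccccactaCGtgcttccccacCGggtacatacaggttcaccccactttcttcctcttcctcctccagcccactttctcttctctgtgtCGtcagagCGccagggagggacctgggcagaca
Stat5a, outer start, chr11:100859406-100859655, plus strand: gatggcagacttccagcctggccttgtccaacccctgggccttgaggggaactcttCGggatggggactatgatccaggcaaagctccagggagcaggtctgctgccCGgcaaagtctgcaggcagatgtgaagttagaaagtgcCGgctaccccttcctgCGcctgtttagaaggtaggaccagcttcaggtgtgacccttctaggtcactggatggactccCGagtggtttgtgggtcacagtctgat
Stat5a, inner start, chr11:100860234-100860483, plus strand: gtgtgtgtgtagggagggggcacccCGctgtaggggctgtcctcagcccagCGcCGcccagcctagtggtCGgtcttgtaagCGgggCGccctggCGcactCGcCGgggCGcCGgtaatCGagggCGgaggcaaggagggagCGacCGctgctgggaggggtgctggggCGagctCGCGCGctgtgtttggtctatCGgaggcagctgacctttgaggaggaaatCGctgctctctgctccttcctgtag
Stat3, chr11:100939541-100939790, minus strand: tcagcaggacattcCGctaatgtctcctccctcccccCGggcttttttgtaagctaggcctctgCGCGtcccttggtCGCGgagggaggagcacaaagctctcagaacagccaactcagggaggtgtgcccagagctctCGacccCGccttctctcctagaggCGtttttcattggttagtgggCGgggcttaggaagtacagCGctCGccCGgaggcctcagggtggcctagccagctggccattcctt
Jak1, chr4:101265224-101265473, minus strand: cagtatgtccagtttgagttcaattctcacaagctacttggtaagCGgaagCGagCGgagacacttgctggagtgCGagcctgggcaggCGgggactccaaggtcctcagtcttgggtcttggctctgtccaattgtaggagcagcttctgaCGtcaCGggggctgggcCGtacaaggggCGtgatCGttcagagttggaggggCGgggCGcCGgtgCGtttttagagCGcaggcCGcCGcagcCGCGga

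Starts under an island did not share a CG content. In windows from 250 bases before to 50 bases after the start, Tyk2 held 23 CG pairs and Stat6 held 8. Stat5a held 5 at the outer start and 27 at the inner. The Stat5a island reached 8464 bp before the start given in the SICER list and 2336 bp into the gene. The 2 RefSeq starts lie closer together than either reach. Whichever is the listed start, both fall under the island if their spacing is the same in the deposited build. Outside islands, Stat3 held 15 and Jak1 held 29, so the ranges of both sets overlapped. The median over 21262 windows of protein-coding genes was 13, with quartiles of 4 and 24, and 95.4% held at least 1 CG. Among the genes in neither list, Jak2 held 44 CG pairs, Stat2 held 22, Stat4 held 2 and 4 at its 2 listed starts, and Stat5b held 7 and 50. The richest window of all members, that of Stat5b, and the poorest, that of Stat4, thus both belonged to genes without an island of their own.

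**Figure D1:**
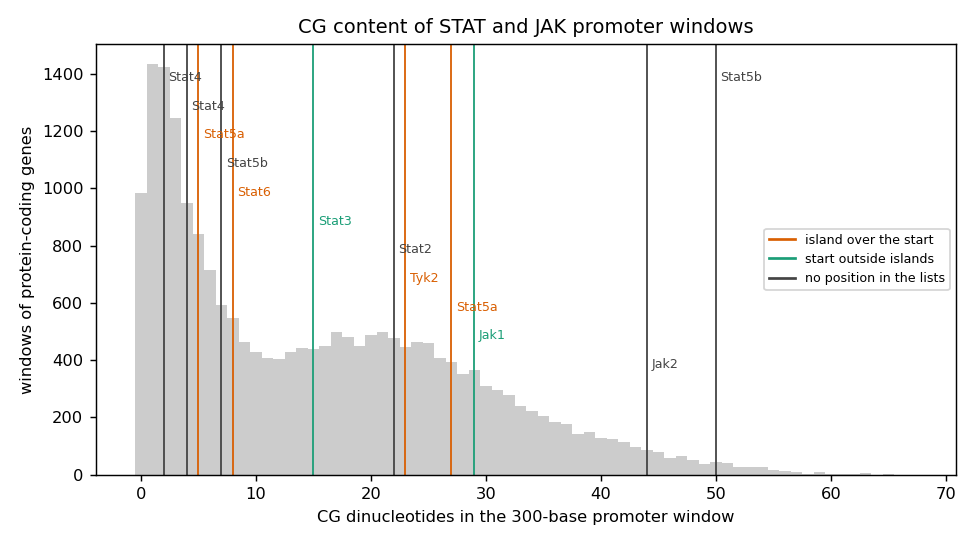
Number of CG dinucleotides (x axis) in 300-base promoter windows of protein-coding genes (grey bars, y axis in windows), with a line for each of the 12 member windows. Orange lines (gene start under an island, both listed starts of Stat5a shown) run from 5 to 27 and green lines (start outside islands) stand at 15 and 29, so the colours do not separate along the axis.

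None of the 12 member windows held TTCNNNGAA, the letters that STAT dimers prefer, which read the same pattern on both strands. Of all protein-coding windows, 7.69% held it. Close to the start, Stat5a and Stat5b had nearly the same letters. Without gaps, a stretch of 50 bases that ended 16 bases before the inner start of Stat5a matched one that ended 7 bases before the Stat5b start with fewer CG pairs, at 45 of 50 positions. That Stat5b start lies inside the gene, downstream of its other listed start, which is rich in CG. Over all 63 pairs of windows from different members, the best such stretch had a median of 26 matching positions. The next highest pair, the inner Stat5a start and the CG-rich Stat5b start, had 31. Both stretches are shown because the genes are neighbours and 1 of them carries calls in both lists.
Stat5a, before the inner start: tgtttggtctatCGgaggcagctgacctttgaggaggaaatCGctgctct
Stat5b: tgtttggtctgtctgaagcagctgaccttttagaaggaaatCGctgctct

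Tyk2, a kinase of interferon and interleukin-12 receptors, had islands at its start and beyond both ends of the gene. The SICER list placed the gene on chromosome 9 from 20908511 to 20935719, on the minus strand. An island from 20934000 to 20939399 (5400 bp) covered the start, reaching 3680 bp before it and 1719 bp into the gene. Only 6.32% of the gene body lay under islands. A neighbouring island from 20940000 to 20945799 (5800 bp) ended 4281 bp before the start of Tyk2. It shared 2816 bp with Cdc37, the gene of a chaperone partner that delivers kinases to Hsp90. The remaining island, from 20900200 to 20903199 (3000 bp), began 5312 bp past the gene end. So 1 of the 3 islands paired with Tyk2 touched its body, whereas 72.0% of all 8242 islands touched the gene they were paired with.

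The narrow region named for Tyk2 lay at the start of another gene. It ran from 20896500 to 20896600, and the MACS list gave Tyk2 as nearest, 11912 bp downstream of the gene. In the SICER list, Raver1, which encodes a nuclear RNA-binding protein, spans 20878608 to 20896432 on the minus strand. The region was thus 68 bp before the Raver1 start and lay inside a Raver1 island from 20892200 to 20897199 (5000 bp). Since positions of this size are rounded to 100 bp, the distance of 68 bp is approximate. Among 411 MACS regions outside genes, 17 (4.14%) had a gene in the SICER list that was nearer than the one named. That list gives positions only for genes paired with an island, so 17 is a lower limit. Distances over 10 kb were also uncommon, at 4.22% of all MACS regions. When the region was given to the nearest gene of the SICER list, Stat5a was the remaining member with a narrow region.

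Jak1, the kinase shared by interferon, interleukin-6 and many other receptors, had the thinnest record of the 5. Its single island ran from 100820200 to 100820599 on chromosome 4, and only 1.21% of islands were as narrow as its 400 bp or narrower. The gene spans 100824578 to 100937887 on the minus strand, so the island began 3979 bp past its end and no part of the body was covered. The island before it ended 6.10 Mb away and the island after it began 5.82 Mb away. In these 11.9 Mb there was no MACS region, and the nearest lay 7069 kb from the island. The list may hold only a selection of islands, so these distances apply to listed islands. Such isolation was rare: 23 of 8242 islands had no other island within 5 Mb on either side. On chromosome 4, 10.4% of protein-coding genes were paired with an island.

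**Figure D2:**
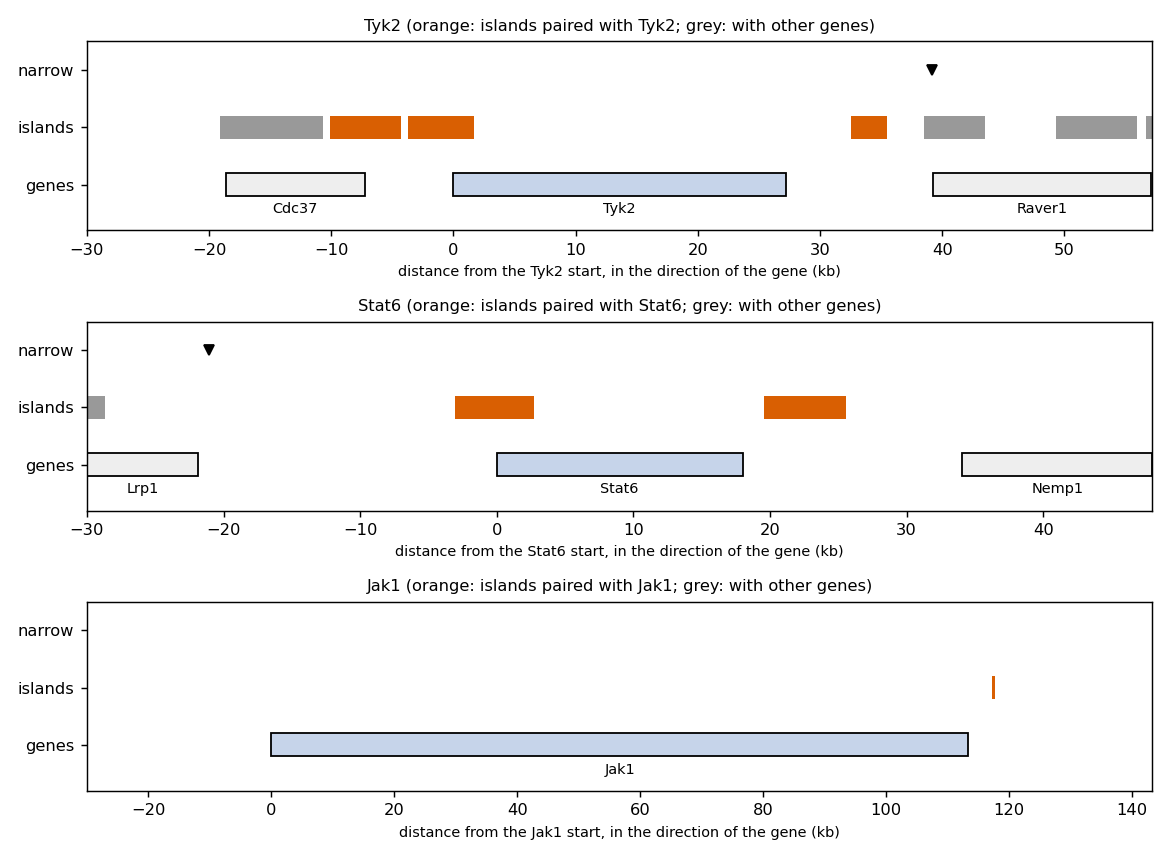
Islands (orange when paired with the named gene, grey when paired with another), narrow regions (triangles) and gene bodies of the SICER list around Tyk2, Stat6 and Jak1, in kb from each gene's start in the direction of the gene. Islands lie over the starts of Tyk2 and Stat6, the triangle in the upper panel stands 68 bp before the Raver1 start, and the Jak1 body holds no island.

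Stat6, the transcription factor of interleukin-4 and interleukin-13 signalling, had an island over its start and a second island past its end. The gene spans 127080041 to 127098043 on chromosome 10, on the plus strand. The island over the start ran from 127077000 to 127082799 (5800 bp), from 3041 bp before the start to 2758 bp into the gene, and covered 15.3% of the body. The other, from 127099600 to 127105599 (6000 bp), began 1557 bp past the gene end. RefSeq places Nab2, which encodes a corepressor of EGR factors, next to Stat6 on that side, and neither list gives it a position. The nearest narrow region was named for Lrp1, an endocytic receptor gene with 7 islands. It stood 21.0 kb before the Stat6 start.

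Stat5a carried the widest island of all members and the narrow region that lay in a member gene. The SICER list gave the gene as 100720664 to 100746483 on chromosome 11, on the plus strand. An island from 100712200 to 100722999 (10800 bp) covered the start, with 8464 bp before it and 2336 bp in the gene. Its width was at or above that of 88.9% of islands. The narrow region, described by the deposited wording as in an intron, was listed at 100722000, which is 1336 bp past the start and 999 bp short of the island's end. MACS positions of this size are rounded to 1000 bp. A full step down kept the region in the island and a full step up put it just outside. A full step is more than rounding to the nearest step can move a position. On chromosome 11, 11.2% of protein-coding genes were named in the MACS list and 31.5% were paired with an island.

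The other 3 islands paired with Stat5a formed a run across the facing ends of Stat5a and Stat3. They ran from 100743400 to 100747999 (4600 bp, over the Stat5a end), from 100748600 to 100749399 (800 bp) and from 100750000 to 100757999 (8000 bp). The gaps between them were 600 bp each, the smallest gap in the whole list, which separated 16.5% of neighbouring islands. End to end the run measured 14600 bp, of which 13400 bp was island. The same spacing joined the island over the Tyk2 start to the one before it. With islands up to 600 bp apart joined, the 11 islands of the members became 8.

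Stat3, the transcription factor of interleukin-6 family cytokines, took most of that run, although the list paired it with Stat5a. Stat3 spans 100748123 to 100800825 on the minus strand, 1639 bp beyond the Stat5a end, and both genes point toward the gap. The 800 bp and 8000 bp islands lay wholly in the Stat3 body, at its end. The island paired with Stat3 itself ran from 100781600 to 100784999 (3400 bp), 15826 to 19225 bp past the start. It covered 6.45% of the gene, and all 3 islands in the body covered 23.1%. The Stat3 start lay in no island, and the next island before it, paired with Cavin1, began 15775 bp away. Cavin1, listed under its older symbol Ptrf, encodes a coat protein of caveolae.

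Islands paired with one gene and lying in another were a minority in the list. Of all islands, 646 (7.84%) lay outside the body of their paired gene and on the body of another listed gene. Of the 11 islands of the members, 3 did so: the pair in Stat3 and the Tyk2 island in Cdc37. By place, 3 member islands covered a gene start, 1 lay inside a gene, 1 covered a gene end, 5 lay downstream and 1 lay upstream. Thus 5 of 11 (45.5%) touched the body of their paired gene. Over the whole list, 15.4% of islands covered the start of their paired gene and 72.0% touched its body.

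**Figure D3:**
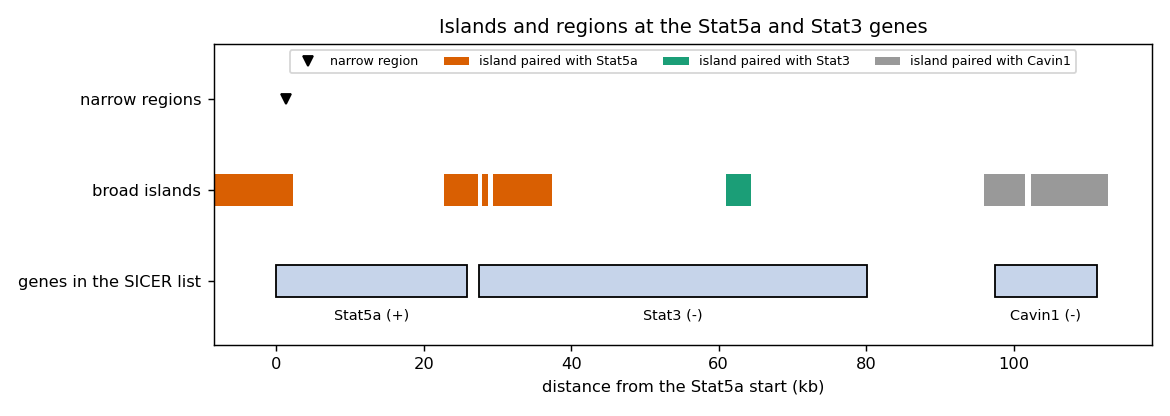
Islands, narrow regions (triangle) and gene bodies of the SICER list on chromosome 11, in kb from the Stat5a start, with islands coloured by the gene they were paired with. The run of 3 islands paired with Stat5a crosses the Stat5a end into the Stat3 end, and the narrow region sits in the island over the Stat5a start.

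Stat5b, the close relative of Stat5a, lies next to it on the other side in RefSeq and was named in neither list. The wide Stat5a island extended 8464 bp toward Stat5b. No position of Stat5b is given in the lists, so whether that island reaches its start cannot be read from them. In RefSeq both listed Stat5b starts lie farther than 8464 bp from both Stat5a starts. By that spacing the island would stop short of Stat5b, but positions were not converted between builds. Since each island is paired with a single gene and the list may be a selection, a count of 0 for Stat5b does not show that no island touched it. From the first Stat5a island to the Stat3 start, 88626 bp, 5 islands covered 27600 bp (31.1%). The nearest island outward of this stretch, on the Stat5b side, ended 79600 bp away.

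Unlike Stat5b, which lies beside Stat5a, the other genes in neither list had protein-coding neighbours without calls. Stat2 encodes a part of the type I interferon signal, Stat4 a factor of interleukin-12 signalling, and Jak2 the kinase of prolactin and growth hormone receptors. Of the 2 nearest protein-coding genes on each side of each of them in RefSeq, none was named in either list. The microRNA gene Mir101b, close to Jak2 in RefSeq, was paired with 3 islands. Shares of genes with an island on their chromosomes were 16.6% for chromosome 10 (Stat2), 19.4% for chromosome 1 (Stat4) and 26.4% for chromosome 19 (Jak2).

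Across the members, island widths ran from 400 to 10800 bp with a median of 5400 bp, against a median of 4800 bp and quartiles of 3000 and 7600 bp for all islands. The widest of them and one of 800 bp were both paired with Stat5a. Body coverage by any island was 23.1% in Stat3, 21.0% in Stat5a, 15.3% in Stat6, 6.32% in Tyk2 and 0% in Jak1. The median over 3769 protein-coding genes paired with islands was 23.4%, so none of the 5 was covered above that median. Of these 5 genes, 3 had their start in an island, where 31.0% of the 3769 genes had theirs in an island paired with them. Stat5a had 4 islands, and 13.1% of the 3769 genes had at least 4. Tyk2 had 3, and 24.7% had at least 3.

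**Figure D4:**
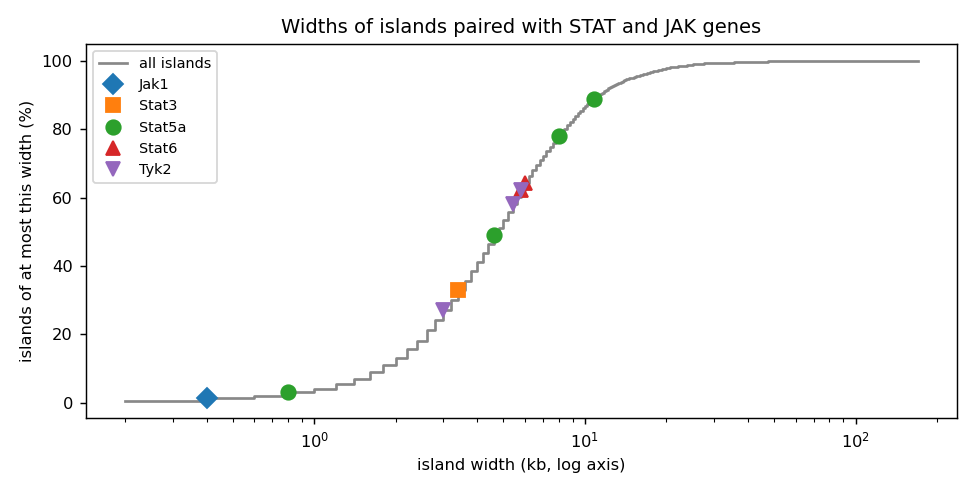
Share of all islands (y axis, %) that are at most a given width (x axis, kb, log axis), with a marker for each of the 11 islands paired with a member. The markers run from Jak1 at 400 bp to Stat5a at 10800 bp.

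Islands were dense around Tyk2 and sparse around Jak1. Within 100 kb of the gene body there were 13 islands at Tyk2, 11 at Stat6, 9 at Stat5a, 7 at Stat3 and 1 at Jak1. The median for paired protein-coding genes was 6, with quartiles of 3 and 10. Around Tyk2 these islands were paired with Cdc37, Icam4, Keap1, Pde4a, Raver1 and Zglp1 besides Tyk2, and around Stat6 with Lrp1, Nemp1 and Tac2.

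Other genes shared the patterns of the members with both calls. Stat5a had 1 narrow region, 4 islands and 1 region in an island, and 16 other protein-coding genes had the same counts. Nearest to its length of 25820 bp were Slc26a11 (25521 bp), Rrp1b (26702 bp) and Pip5k1c (27004 bp). Tyk2, with 1 narrow region, 3 islands and 1 region in an island, matched 27 genes. Slc38a10, Rab20 and Frmd8 were nearest to its 27209 bp.

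The rest of the pathway was looked up in a list of 58 genes. Of these, 13 (22.4%) had a narrow region, 26 (44.8%) had an island and 6 (10.3%) had both. The shares of all protein-coding genes were 6.14%, 17.2% and 2.46%, and the differences were not tested. By role, islands were found at 11 of 16 inhibitors, 8 of 14 target genes and 6 of 25 cytokine receptors. Islands were counted for the gene they were paired with, so a gene under a neighbour's island can count as having none. Of 3 other core genes 1 had an island, Irf9, the DNA-binding partner of STAT dimers in the interferon response. Narrow regions were found at 5 receptors, 3 inhibitors and 5 targets.

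The narrow regions of receptors were 5, and none of them lay in an island. Most MACS regions did not either, since 30.6% of all of them lay in one, and 3 of the 5 belong to neighbouring genes. Ifnar2 and Ifnar1, both chains of the type I interferon receptor, and Ifngr2, a chain of the interferon gamma receptor, lie on chromosome 16. Their regions stood at 91373000 to 91373200, 91485300 to 91485500 and 91547200 to 91547300, the last 39 bp upstream of Ifngr2. These are neighbours on a chromosome where 35.3% of protein-coding genes were named in the MACS list. The region of the oncostatin M receptor gene Osmr lay 146 bp upstream, and the remaining one lay in Lifr. Both are on chromosome 15, at 6824460 to 6824520 and 7079880 to 7079990, so they too come from the same part of a chromosome. Receptors with islands alone included Il12rb1, which signals through Tyk2, with a widest island of 10000 bp, Il6ra (6200 bp), Il2rb (3800 bp) and Il10rb (3800 bp).

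Inhibitors had the most genes with islands. Of their 8 narrow regions 4 lay in islands, all at Socs1 and Socs3, whose products block JAK kinases. The share over all MACS regions was 30.6%, and the difference was not tested. Socs1 lies on chromosome 16, where 35.3% of protein-coding genes were named in the MACS list. Pias4, which encodes a SUMO ligase that restrains STATs, had 2 narrow regions close to its start, 1 in an intron and 1 placed 134 bp upstream, and 3 islands elsewhere. Among inhibitor genes with no narrow region, the widest islands were at the phosphatase gene Ptpn1 (13800 bp), at Pias3 (9200 bp), and at Socs5 and Socs7 (6400 bp each).

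Of 8 narrow regions at target genes 4 lay in islands, beside 30.6% of all MACS regions, and this was not tested. Vegfa, the angiogenic factor gene, had 3 regions and 2 of them were in an island of 2800 bp. As with Tyk2, the regions of Junb and Birc5 lay in islands paired with a neighbour. Both genes were therefore counted as having a narrow region and no island. That of Junb, an AP-1 gene, was at 87504400 on chromosome 8 in an island of 20200 bp paired with Hook2. That of Birc5, the survivin gene, was at 117711000 on chromosome 11 in an island of 4400 bp paired with Afmid. Pim1 and Cebpd had regions outside islands, and Cebpd, like Socs1, lies on chromosome 16. Among target genes with no narrow region, the widest islands were at Bcl6 (9800 bp), Fos (9200 bp), Bcl2l1 (9000 bp) and Irf1 (8600 bp).

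**Figure D5:**
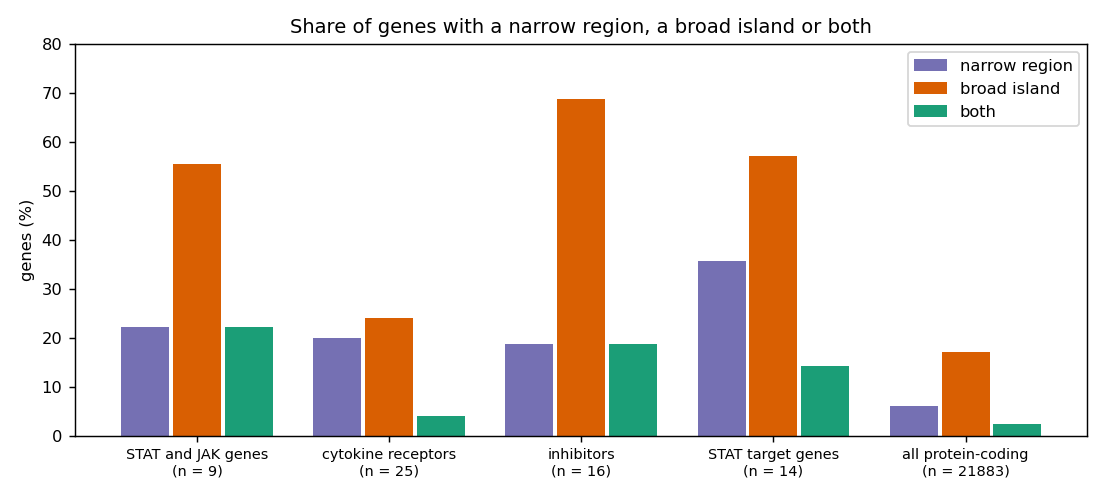
Share of genes (y axis, %) named in the MACS list (narrow region), paired with a SICER island (broad island) or both, for the 9 members, the pathway roles and all protein-coding genes. Inhibitors (11 of 16) and targets (8 of 14) have the tallest island bars beside the members (5 of 9), and receptors (6 of 25) stand nearest to the 17.2% of all genes.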

How the data were processed

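The series measured DNMT3B binding by ChIP-seq, with 2 ChIP and 2 input libraries of lung metastases, per the labels. Per the submitters' processing notes the authors used Bowtie2 (given as 2.10), MACS (given as 1.4) and SICER, with mm10 as the build. The name of the MACS list points to a later version and perhaps to a cutoff, and which version was used is not settled. The sources used here do not say whether libraries were pooled. The 2 lists hold base positions and distances, per the file headers, and no read value, score or p-value. No sample value column was left unmapped.

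The MACS list had 4304 lines and 1705 distinct regions, and each was counted once. Its positions carry at most 6 digits, so ends can equal starts. The name of the SICER list points to a top selection of islands, with no rule stated, so absence from it is not absence of signal. It had 8242 islands, each paired with 1 gene and that gene's positions. Widths count both end bases. Gene ends of the 5 members with islands differed by 138.7 to 562.9 kb from GRCm38, so the build of the deposited positions is not known and none were converted.

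A gene carried a region when a list named it, at any distance. Names were matched to RefSeq by transcript, symbol or unique synonym (99.8% of regions, 99.9% of islands). Promoter windows came from RefSeq GRCm38.p6, which had windows for all 9 members. Gene starts in the text are those of the SICER list. Only descriptions are given, with shares of all genes as background and no test. The pathway list was a fixed list of receptors, inhibitors, targets and core genes. Named genes were the members, their neighbours with calls, pathway genes with a narrow region and up to 4 per role with the widest islands alone. The members and lists were chosen with earlier results of these data known. Python 3.11.15 and pandas 2.3.3 were used. The interval functions were tested on simulated data.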

Additional observations from a re-analysis of the deposited data

How the results depend on the processing

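Neither list gives library values or scores, so no library was left out and a minimum width stood in for a stricter caller threshold. No paired analysis was possible because no column belongs to a library. Of 9 members, 2 had a narrow region by name. The count was 1 with regions required to overlap the gene or lie up to 5 kb upstream, 1 with overlap required, and 1 when each region went to the nearest gene of the SICER list. In these 3 settings Tyk2 was lost. The count of members with both calls was then 1 in place of 2 when both had to lie over the gene. Members with an island numbered 5, and 4 under each of 3 other rules of assignment, which drop Jak1. With islands of at least 5 kb there were 3, Stat5a, Stat6 and Tyk2. Both member regions lay in islands, and after a full rounding step to higher positions 1 did. Counts over the pathway list stayed within 1.5 times. The settings with nearest genes, rounding steps and joined islands were chosen after seeing the data. Depth is unknown, so a gene in neither list cannot be called free of DNMT3B.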

Other observations

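Tac2 and Hcrt, neuropeptide genes near Stat6 and Stat5a, were paired with 1 and 3 islands. Around Tyk2, Keap1, the sensor gene of the oxidative stress response, was paired with 3 islands, and Pde4a, a cyclic AMP phosphodiesterase gene, with 2.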
